A study of Mus musculus with 8 samples.

Results

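Egr1, Klf4, Klf6, Ier2, Ier3, Btg2, Dusp1, Zfp36 and Socs3 are early-response genes, whose transcripts appear within a short time of a stimulus and are soon degraded. They were chosen by name, with earlier results of these data known, as the transcription factors and feedback genes of that response. The AP-1 and Nr4a genes were left out. All 9 were found among the 25343 genes of the deposited table. Their RNA was measured in cells sorted for a reporter of hair cells, the cells that turn sound into electrical signals. The cells came from the cochlea of mice with and without a functional Ndp gene. Ndp encodes norrin, a secreted protein that binds the receptor Fzd4.

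The knockout group, Ndp KO, and the wild-type group, WT, each had 4 libraries. Both were on a mixed background of C57BL/6 and 129, and both were collected at postnatal days 4 to 6. Each library came from a pool of 12 to 20 sensory epithelia, which were digested with TrypLE, broken up mechanically, spun down and sorted for the reporter Atoh1-GFP before lysis. The sources used here describe neither the deleted stretch of Ndp nor how pools relate to litters. Replicate numbers only name the libraries. The labels call them separate samples without naming animals, so each p-value reflects no more than the scatter among the 8 libraries, part of which may be technical. The library titles hold dates, of which 1 occurs in both genotypes, in Ndp KO library 2 and WT library 2. What was done on those dates is not stated in the labels.

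Early-response genes are switched on by signals such as growth factors, calcium entry and cell stress, without the need for new protein synthesis. The first products are transcription factors, among them the zinc-finger proteins of the Egr and Klf families, which go on to regulate later genes. Feedback proteins made at the same time limit the response: Dusp1 removes phosphate from the MAP kinases, Zfp36 binds AU-rich messenger RNAs and promotes their decay, and Socs3 inhibits JAK-STAT signalling. Several of these genes are known to be switched on during enzymatic dissociation and sorting of tissue.

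The upstream sequences of 7 of the 9 genes, all but Egr1 and Ier2, were taken from RefSeq (GRCm38.p6). Of these, 5 are shown because they hold a cAMP response element, a CArG box or the E-box CACGTG. In Dusp1 and Btg2 the capitals mark the cAMP response element TGACGTCA, bound by CREB-family proteins, and in Dusp1, Klf6 and Klf4 they mark the E-box CACGTG. In the 30 bases shown for Zfp36, which lie in an annotated exon, they mark a CArG box, the site of serum response factor. Each sequence is on the strand of its gene.
Dusp1, chr17:26508520-26508722, minus strand: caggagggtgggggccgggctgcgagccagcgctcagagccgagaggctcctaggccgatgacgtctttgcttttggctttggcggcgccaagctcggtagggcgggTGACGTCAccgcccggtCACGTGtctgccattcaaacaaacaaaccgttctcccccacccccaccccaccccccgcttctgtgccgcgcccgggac
Btg2, chr1:134079156-134079405, minus strand: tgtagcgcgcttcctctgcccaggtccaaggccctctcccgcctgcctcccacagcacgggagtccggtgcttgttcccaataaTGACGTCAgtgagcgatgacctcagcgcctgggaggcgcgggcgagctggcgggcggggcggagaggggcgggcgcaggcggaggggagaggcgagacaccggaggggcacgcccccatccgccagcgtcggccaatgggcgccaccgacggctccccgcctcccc
Klf6, chr13:5861239-5861481, plus strand: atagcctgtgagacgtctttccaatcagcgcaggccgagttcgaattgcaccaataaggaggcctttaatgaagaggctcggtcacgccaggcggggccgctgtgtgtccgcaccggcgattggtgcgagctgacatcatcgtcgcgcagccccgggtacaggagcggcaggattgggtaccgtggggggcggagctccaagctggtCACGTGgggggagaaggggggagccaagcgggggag
Klf4, chr4:55532476-55532725, minus strand: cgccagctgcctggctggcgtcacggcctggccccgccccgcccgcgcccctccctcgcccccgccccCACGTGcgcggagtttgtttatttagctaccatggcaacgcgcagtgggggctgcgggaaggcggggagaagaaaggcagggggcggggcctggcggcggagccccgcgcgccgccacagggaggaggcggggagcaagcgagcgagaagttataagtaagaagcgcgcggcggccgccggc
Zfp36, chr7:28379267-28379296, minus strand: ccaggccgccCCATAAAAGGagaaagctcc

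Both strands of the 250 bases before each RefSeq start were searched. The cAMP response element occurred in 1.55% of 32851 promoters and in 2 of the 7, Btg2 and Dusp1. The CArG box occurred in 1.47% of promoters and in 1 of the 7, Zfp36. The E-box CACGTG occurred in 6.02% of promoters and in 3 of the 7, Dusp1, Klf4 and Klf6. The GC box GGGCGG, bound by Sp and Klf proteins, occurred in 32.7% of promoters and in all 7. The STAT site TTCCNGGAA occurred in 0.913% of promoters and the TATA box TATAAA in 12.4%, and neither set of letters was found in these windows of the 7 genes. A match describes the letters and shows no binding.

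As a check of the genotypes, Ndp had 10.5 to 66.8 normalized counts in Ndp KO libraries and 90.4 to 206 in WT libraries, without overlap. Its log2 difference was -2.20 ± 0.56 (SE, limma, adjusted p = 0.895, n = 4 each). The 10 hair cell markers were all measured, 8 of them with a positive log2 difference. At an unadjusted p under 0.05, 3 were higher in Ndp KO (limma, 0 called), against 3.1% of all genes. Their summed level was 374500.0 to 447040.0 normalized counts in Ndp KO libraries and 350504 to 396250.0 in WT libraries. The 10 markers of supporting cells, the neighbours of hair cells in the same epithelium, were also abundant, with summed levels of 258723 to 343326 normalized counts in Ndp KO libraries and 199384 to 415149 in WT libraries. The 8 libraries held between 35077950 and 48329827 recovered reads, a total that may rest on rounded estimates in place of counted reads.

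All 9 genes were detected in every library, and their levels spanned a wide range. The levels below are normalized counts per kilobase of merged exons (GENCODE, GRCm38), averaged over the 8 libraries. Btg2, an antiproliferative gene that encodes a cofactor of messenger RNA deadenylation, was the most abundant at 8019.8 per kilobase, and its lowest library (6691) lay above the highest library of Ier2 (5959). Ier2, an immediate early gene of a nuclear protein, had 4302 per kilobase, followed by Egr1 with 2623 and Dusp1 with 1647, and the ranges of neighbours in this order overlapped. A gap followed, since the lowest Dusp1 library held 984 per kilobase and the highest Zfp36 library 395. Zfp36 (286 per kilobase) and Klf6 (275) could not be placed in order, as their ranges of 207 to 395 and 179 to 373 largely coincided. Socs3 had 137 per kilobase, Ier3 76.3 and Klf4 47.8, again with overlapping ranges between neighbours.

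The comparison of Ndp KO with WT libraries asked which transcripts differ in the sorted cells without norrin. Of the 9 genes, 8 had a lower and 1, Ier3, a higher average log2 level in Ndp KO libraries. The largest difference was that of Egr1, whose mean in Ndp KO libraries was 0.592 times that in WT libraries. None of the differences passed the test over all genes. limma called 0 of the 9 at an adjusted p under 0.05, against 0.00549% of 18203 genes tested, and edgeR (0% of all genes) and DESeq2 (0.0882%) also called 0. At an unadjusted p under 0.05, limma listed 3 as lower in Ndp KO (Egr1, Ier2 and Klf6), against 2.47% of all genes. edgeR listed 4 (against 2.33%) and DESeq2 5 (against 3.1%), adding Dusp1 and then Zfp36. The median log2 difference of the 9 was -0.45, beside 0.02 for all genes tested, of which 47.5% had a negative one. Since the 9 were chosen with earlier results of these data known, these counts and medians are descriptions. The genotypes overlapped for all 9 genes, while 1.58% of all genes lay lower in every Ndp KO library than in any WT library and 1.46% lay higher. In bulk libraries, fewer cells of a type and less RNA per cell cannot be told apart.

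**Figure D1:**
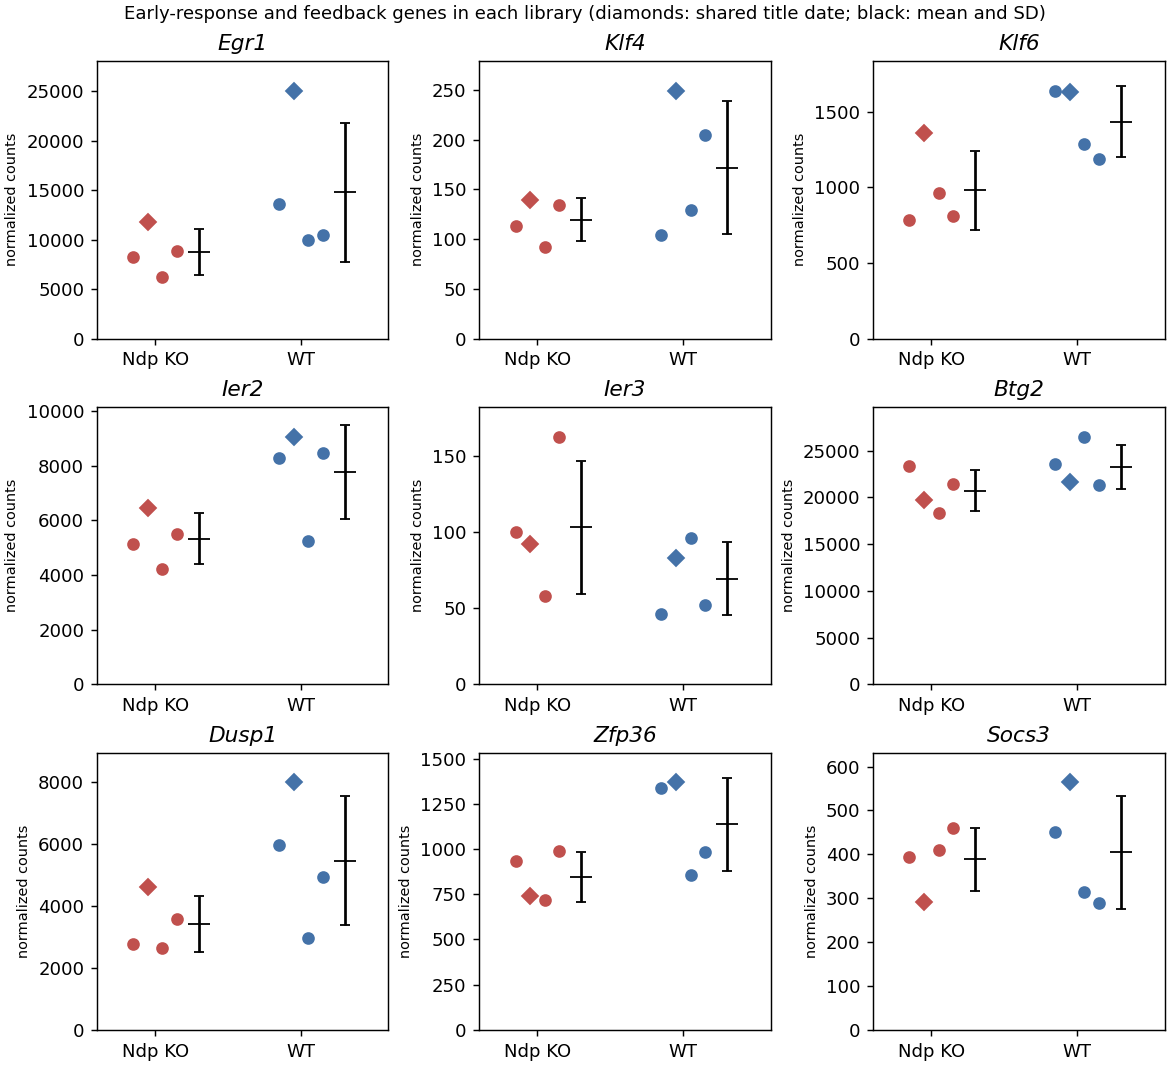
Normalized counts (y axes, from 0) of each of the 9 genes in the 4 Ndp KO libraries (red) and the 4 WT libraries (blue), with diamonds for the pair that shares a title date and black bars for the mean and SD. Every gene has overlapping genotypes, and WT library 2 is the highest point for 6 of the 9, reaching 25048 for Egr1.

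Egr1 (ENSMUSG00000038418, chr18:34859823-34864984, plus strand) encodes a zinc-finger transcription factor induced through the ERK pathway and serum response factor. It had 8222, 11764, 6189 and 8827 normalized counts in Ndp KO libraries 1 to 4, and 13616, 25048, 9988 and 10441 in WT libraries 1 to 4. In 3 Ndp KO libraries Egr1 lay below every WT library, while Ndp KO library 2 lay within the WT range, and WT library 2 stood far above the other three. Its mean was 8751 ± 2304 in Ndp KO and 14773 ± 7038 in WT (SD, n = 4 each). The log2 difference of Egr1 was -0.69 ± 0.29 (SE, limma, unadjusted p = 0.0369, adjusted p = 0.895). With each library left out in turn it ranged from -0.84 to -0.40, the smallest size being that without WT library 2.

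Klf6 (ENSMUSG00000000078, chr13:5861482-5870394, plus strand) encodes a zinc-finger factor that binds GC-rich promoters. Ndp KO libraries 1 to 4 held 786, 1356, 961 and 812 normalized counts of Klf6, and WT libraries 1 to 4 held 1638, 1627, 1284 and 1186. As for Egr1, Ndp KO library 2 alone reached into the WT range. Klf6 averaged 979 ± 263 normalized counts in Ndp KO and 1434 ± 233 in WT (SD, n = 4 each), and its log2 difference was -0.57 ± 0.21 (SE, limma, unadjusted p = 0.0199, adjusted p = 0.895). With each library left out in turn, Klf6 ranged from -0.74 to -0.48.

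Klf4 (ENSMUSG00000003032, chr4:55527143-55532466, minus strand), a related factor of epithelial differentiation and pluripotency, had the lowest mean level of the 9 per kilobase. Its normalized counts were 113, 139, 92.0 and 134 in Ndp KO libraries 1 to 4, and 105, 249, 129 and 205 in WT libraries 1 to 4. The genotypes overlapped broadly for Klf4, with WT library 1 among the lowest and WT libraries 2 and 4 above every Ndp KO library. Its log2 difference of -0.45 ± 0.34 (SE, limma, unadjusted p = 0.210, adjusted p = 0.940) was of the size of its error. It was -0.25 without WT library 2, and as low as -0.66 with another library left out.

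Ier2 (ENSMUSG00000053560, chr8:84661331-84662852, minus strand) had 5122, 6469, 4212 and 5485 normalized counts in Ndp KO libraries 1 to 4, and 8298, 9069.9, 5256 and 8476 in WT libraries 1 to 4. Here the overlap came from WT library 3, which lay among the Ndp KO libraries, while the other three WT libraries were above all of them. Ier2 averaged 5322 ± 934 normalized counts in Ndp KO and 7775 ± 1712 in WT (SD, n = 4 each). Its log2 difference was -0.53 ± 0.20 (SE, limma, unadjusted p = 0.0204, adjusted p = 0.895), and -0.71 to -0.43 with each library left out in turn.

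Ier3 (ENSMUSG00000003541, chr17:35821684-35822923, plus strand), an early-response gene that modulates cell survival and ERK signalling, was the exception in direction. Ier3 had 100.2, 92.2, 57.7 and 163 normalized counts in Ndp KO libraries 1 to 4, and 46.5, 83.1, 95.9 and 52.3 in WT libraries 1 to 4. Ndp KO library 4 stood well above all others, and the lowest Ndp KO library lay between WT libraries. The log2 difference of Ier3 was 0.53 ± 0.41 (SE, limma, unadjusted p = 0.225, adjusted p = 0.940), and it was 0.29 without Ndp KO library 4.

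Btg2 (ENSMUSG00000020423, chr1:134075170-134079120, minus strand) varied least. Its normalized counts were 23387, 19733, 18353 and 21476 in Ndp KO libraries 1 to 4, and 23533, 21608, 26522 and 21376 in WT libraries 1 to 4. The highest library of Btg2 held 1.45 times the lowest, against 4.05 times for Egr1 and 3.02 times for Dusp1. Btg2 had a log2 difference of -0.17 ± 0.13 (SE, limma, unadjusted p = 0.220, adjusted p = 0.940), and it was -0.10 without WT library 3 and -0.11 without Ndp KO library 3.

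Dusp1 (ENSMUSG00000024190, chr17:26505590-26508519, minus strand), the phosphatase of ERK, p38 and JNK, shares the cAMP response element shown above with Btg2. Its normalized counts were 2789, 4622, 2654 and 3577 in Ndp KO libraries 1 to 4, and 5967, 8006, 2971 and 4948 in WT libraries 1 to 4. WT library 3 lay among the Ndp KO libraries, and the other three WT libraries lay above them. Dusp1 averaged 3410.3 ± 904 in Ndp KO and 5473 ± 2097 in WT (SD, n = 4 each). Its log2 difference was -0.63 ± 0.29 (SE, limma, unadjusted p = 0.0503, adjusted p = 0.895), with a left-out range of -0.89 to -0.42, the smallest size being that without WT library 2.

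Zfp36 (ENSMUSG00000044786, chr7:28376784-28380253, minus strand), the messenger RNA decay factor, had 934, 741, 718 and 991 normalized counts in Ndp KO libraries 1 to 4, and 1338, 1369, 857 and 981 in WT libraries 1 to 4. WT libraries 1 and 2 lay above all others, and the remaining libraries of both genotypes were mixed. The log2 difference of Zfp36 was -0.41 ± 0.21 (SE, limma, unadjusted p = 0.0719, adjusted p = 0.903). The antisense gene Gm44710 overlaps 1274 bases of Zfp36, and the library kit does not mark strand, so reads within that overlap cannot be assigned to 1 gene of the pair. Gm44710 was listed at 3.49 to 9.92 normalized counts per library.

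Socs3 (ENSMUSG00000053113, chr11:117966079-117970047, minus strand), the cytokine feedback gene, had 394, 290.3, 409 and 461 normalized counts in Ndp KO libraries 1 to 4, and 452, 564, 313 and 288 in WT libraries 1 to 4. The libraries of both genotypes were interleaved. The log2 difference of Socs3 was -0.02 ± 0.27 (SE, limma, unadjusted p = 0.930, adjusted p = 0.998), and its sign turned when Ndp KO library 2, WT library 1 or WT library 2 was left out (-0.17 to 0.15 over all libraries left out in turn).

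In the authors' deposited table the unshrunken log2 fold changes of Ndp KO over WT were -0.76 for Egr1, -0.68 for Dusp1, -0.55 for Klf6, -0.55 for Ier2, -0.52 for Klf4 and -0.43 for Zfp36. For Btg2, Socs3 and Ier3 the authors' deposited table gave -0.17, -0.06 and 0.57. The lowest adjusted p among the 9 in the authors' deposited table was 0.513, that of Ier2, and 0.136% of genes were called there. At an unadjusted p under 0.05, the authors' deposited table listed 5 of the 9 as lower in Ndp KO (Egr1, Ier2, Zfp36, Dusp1 and Klf6), against 3.01% of its genes. Its fold change column runs WT over Ndp KO, and the sign was turned here.

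**Figure D2:**
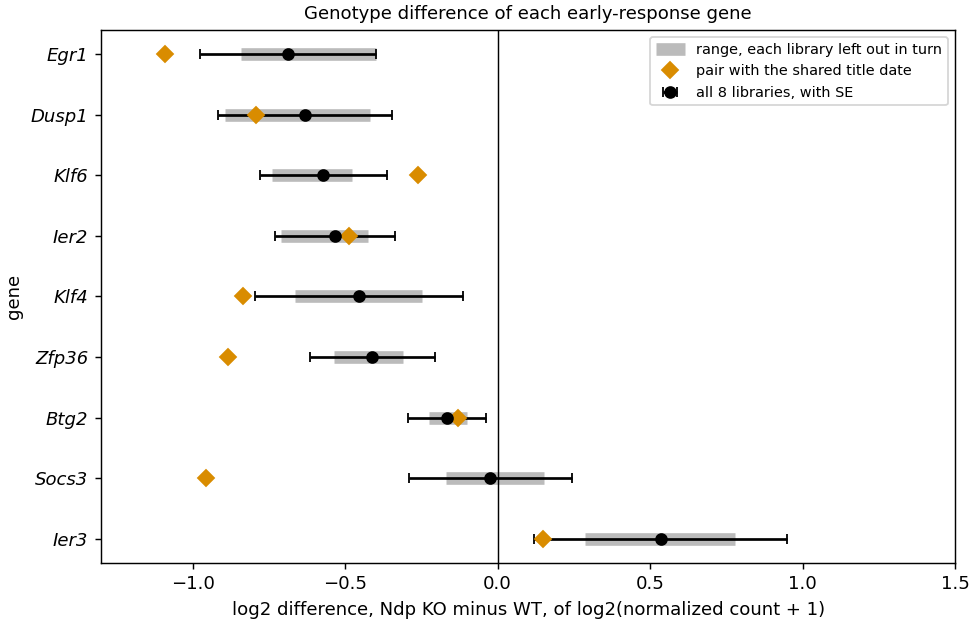
Log2 difference, Ndp KO minus WT (x axis), of each gene (rows): black points with SE bars are the limma estimates over all 8 libraries, grey bars the range with each library left out in turn, and orange diamonds the pair with the shared title date. The estimates run from -0.69 for Egr1 to 0.53 for Ier3, and the diamond lies below the estimate for Egr1, Dusp1, Klf4, Zfp36, Socs3 and Ier3.

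Libraries of the same genotype differed widely for these genes. For each library, the log2 level of every gene was set against that gene's mean over the 8 libraries, and the 9 deviations were averaged. This mean level was -0.19, -0.02, -0.44 and 0.00 in Ndp KO libraries 1 to 4, and 0.15, 0.57, -0.08 and 0.02 in WT libraries 1 to 4. WT library 2 was the highest library for 6 of the 9 genes, and Ndp KO library 3 was the lowest for 6. Between these extremes the genotypes were mixed, with Ndp KO libraries 2 and 4 above WT library 3. The mean over libraries was -0.16 ± 0.20 in Ndp KO and 0.16 ± 0.28 in WT (SD, n = 4 each). Without WT library 2 the median log2 difference of the 9 genes was -0.31, and 0 genes had an unadjusted p under 0.05 in limma, against 3.47% of all genes lower at that p in the same fit. Without WT library 1 the median was -0.49, also with 0 such genes, against 1.82% of all genes. Without Ndp KO library 1, 3 or 4 there was 1, against 2.07%, 1.56% and 2.35%. Without WT library 3 there were 5, against 2.57%, with a median of -0.56. There were 4 without Ndp KO library 2 (median -0.53), against 2.5%, and 3 without WT library 4 (median -0.47), against 2.49%.

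**Figure D3:**
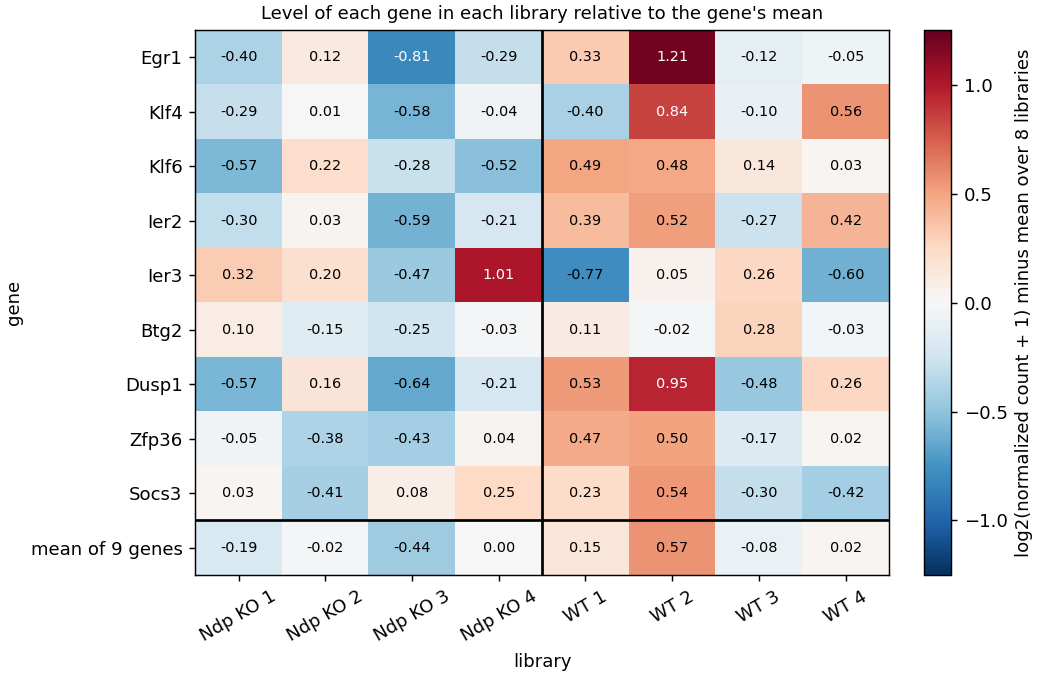
Level of each gene (rows) in each library (columns, Ndp KO left of the line and WT right of it), as log2(normalized count + 1) minus the gene's mean over 8 libraries, with the average of the 9 genes in the bottom row. WT library 2 has the highest average, 0.57, and Ndp KO library 3 the lowest, -0.44.

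Within the pair that shares a title date, Ndp KO library 2 and WT library 2, 8 of the 9 genes were lower in Ndp KO, with a median log2 difference of -0.79 and no replicate. The difference in that pair was -1.09 for Egr1, -0.96 for Socs3, -0.88 for Zfp36, -0.83 for Klf4, -0.79 for Dusp1, -0.49 for Ier2, -0.26 for Klf6 and -0.13 for Btg2. Ier3 had 0.15. In the other 6 libraries 7 of the 9 genes had a negative difference and the median was -0.33. The pair holds the WT library with the highest levels and the Ndp KO library that was highest of its genotype for 5 of the 9 genes. Date and genotype cannot be told apart for the other libraries.

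The genes did not all vary together. Over the 36 pairs of genes, Pearson's r of the log2 levels across the 8 libraries ranged from -0.51 to 0.95 with a median of 0.37, and 29 pairs were positive. Dusp1 and Ier2 had the closest relation, with r = 0.95 (exact permutation p = 0.000893, two-sided, adjusted over the 36 pairs p = 0.0161) and Spearman's rho = 0.98 (exact permutation p = 0.000397, adjusted p = 0.0143). Dusp1 and Egr1 had r = 0.92 (exact permutation p = 0.000397, adjusted p = 0.0143) and rho = 0.95 (exact permutation p = 0.00114, adjusted p = 0.0205). Egr1 and Ier2 had r = 0.84 (exact permutation p = 0.00332, adjusted p = 0.0399), with an adjusted p of 0.0548 for rho = 0.90 by the same exact permutation test. These 3 pairs were the ones past the threshold for r. Ier3 and Klf6 lay at the other end with r = -0.51, and Btg2, the most abundant gene, had r = 0.20 with Egr1.

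The relations were also computed within genotypes. After the genotype means were removed, 1 pair fell under the threshold, Dusp1 and Ier2, with r = 0.93 (permutation adjusted p = 0.0134). Dusp1 and Egr1 had r = 0.87 (permutation adjusted p = 0.0839) and Egr1 and Ier2 r = 0.73 (permutation adjusted p = 0.395). These permutations moved values between genotypes although the means had been removed within them. Their p-values are therefore approximate and may be too small. Without the 2 libraries farthest from the median of the gene on the x axis, r was 0.96 for Dusp1 and Ier2. It was 0.86 for Dusp1 and Egr1 and 0.75 for Egr1 and Ier2. With 6 libraries left, 0 of the 36 pairs passed (3 at an unadjusted exact permutation p under 0.05). So few libraries have too few orders for any pair to pass on its own after the adjustment, and the 0 cannot show a lost relation.

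**Figure D4:**
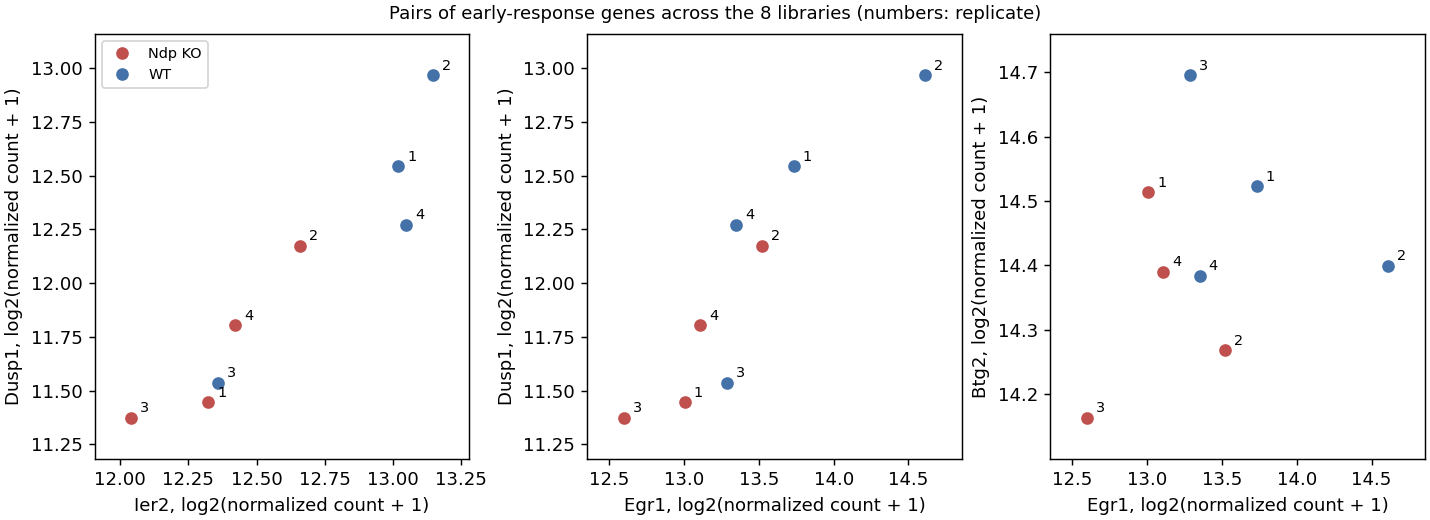
Log2(normalized count + 1) of Dusp1 against Ier2, Dusp1 against Egr1 and Btg2 against Egr1, with 1 point per library (red, Ndp KO; blue, WT; numbers, replicate). Dusp1 is higher where Ier2 (r = 0.95) and Egr1 (r = 0.92) are higher, through libraries of both genotypes, while Btg2 shows no such line with Egr1 (r = 0.20).

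Among 12923 other genes with a mean of at least 100 normalized counts, those most like the mean level of the 9 genes over the 8 libraries were, in order of Pearson's r, Ralb (0.97), Ppp1r2 (0.97), Dync1i1 (0.96), Fos (0.96), Shroom1 (0.95), Etv4 (0.95), Mest (0.94) and Mtap (0.94). They were picked as the highest of many, with 8 libraries, so these r are descriptions without a test. Etv4, an ETS transcription factor downstream of FGF and ERK signals, had 152, 134, 99.2 and 178 normalized counts in Ndp KO libraries 1 to 4, and 235, 539, 125 and 192 in WT libraries 1 to 4, with WT library 2 again the highest. Most like Egr1 alone were Jun (0.98), Fos (0.97) and Shroom1 (0.96). Jun, a subunit of the AP-1 transcription factor, had 4727 to 7384 normalized counts in Ndp KO libraries and 7514 to 13912 in WT libraries, without overlap.

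Related genes were described from 9 lists with 95 genes, of which 94 could be tested. These lists too were chosen with earlier results of these data known. limma called 0 of them. With no adjustment of p, 13 were lower and 2 higher in Ndp KO at the same threshold, against 2.47% and 3.1% of all genes. For 5 of the 94 every Ndp KO library lay below every WT library, against 1.58% of all genes. For 1 every Ndp KO library lay above, against 1.46%. The same shares of all genes apply to each list below. edgeR also called 0. DESeq2 called 1, Nr4a3, which encodes an orphan nuclear receptor (adjusted p = 3.97e-08). The 94 genes had a median log2 difference of -0.05, against -0.45 for the 9. Negative and positive log2 differences numbered 51 and 43.

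**Figure D5:**
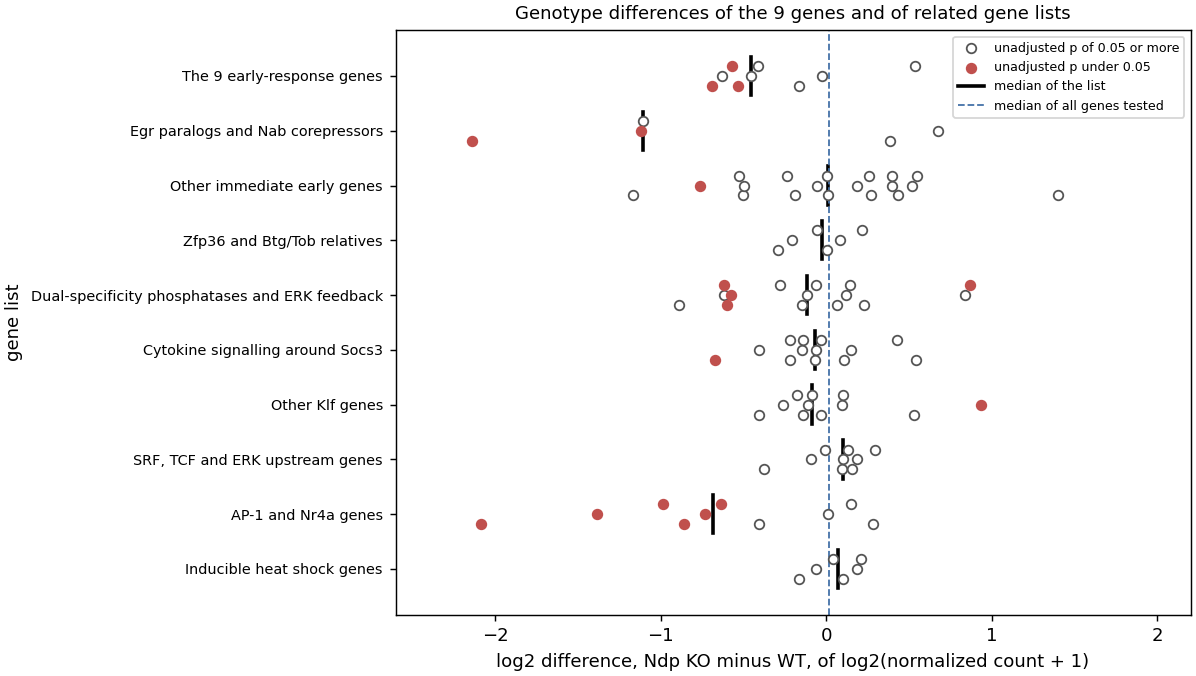
Log2 difference, Ndp KO minus WT (x axis), of the 9 genes and of the genes of 9 related lists (rows), with filled points for an unadjusted limma p under 0.05, a black tick for the median of each list and a dashed line for the median of all genes tested (0.02). The Egr and Nab list (median -1.11) and the AP-1 and Nr4a list (-0.68) lie furthest left, and the other lists have medians of -0.12 to 0.10.

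The relatives of Egr1 included the gene with the lowest log2 difference in these lists, Egr4, with 0 of 5 called by limma and 2 at an unadjusted p under 0.05. Egr4, the gene of a further Egr factor, had 62.2, 47.1, 13.5 and 63.8 normalized counts in Ndp KO libraries 1 to 4, and 303, 220.0, 131 and 120 in WT libraries 1 to 4, without overlap. The log2 difference of Egr4 was -2.14 ± 0.53 (SE, limma, unadjusted p = 0.00218, adjusted p = 0.895). Egr2, known for its part in Schwann cell myelination, had 881, 1209, 531 and 954 normalized counts in Ndp KO libraries 1 to 4, and 2517, 3438, 1289 and 1084 in WT libraries 1 to 4, with WT library 4 between Ndp KO libraries. Egr2 had a log2 difference of -1.12 ± 0.37 (SE, limma, unadjusted p = 0.0124, adjusted p = 0.895), and Egr3 had -1.11 ± 0.59 (SE, limma, unadjusted p = 0.0893, adjusted p = 0.917). The value of Egr3, which is also the median of the 5 genes of this list, was -0.48 without Ndp KO library 3, and it was 0.01 in the pair with the shared title date. Nab1, which encodes a corepressor of Egr proteins, averaged 2535 ± 143 normalized counts in Ndp KO and 2027 ± 641 in WT (SD, n = 4 each). Its log2 difference was 0.38 over all 8 libraries and -0.12 in the pair with the shared title date.

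Of 15 dual-specificity phosphatases and ERK feedback genes, limma called 0, with 3 lower and 1 higher at an unadjusted p under 0.05 and a median log2 difference of -0.12. Dusp6, a phosphatase specific for ERK, averaged 1472 ± 242 normalized counts in Ndp KO and 2212 ± 500.1 in WT (SD, n = 4 each; log2 difference -0.57 ± 0.19, SE, limma adjusted p = 0.895). Spry1, an inhibitor of receptor tyrosine kinase signalling, had 597 to 919 normalized counts in Ndp KO libraries and 943 to 1494 in WT libraries, without overlap. Its relative Spry2 averaged 223 ± 39.8 in Ndp KO and 342 ± 85.6 in WT (SD, n = 4 each). Dusp8, a phosphatase of JNK and p38, had the opposite sign, with 1404 ± 784 normalized counts in Ndp KO and 682 ± 167 in WT (SD, n = 4 each; log2 difference 0.87 ± 0.39, SE, limma adjusted p = 0.895). In the pair with the shared title date the difference was 0.12 for Dusp8, -1.07 for Dusp6, -0.94 for Spry1 and 0.06 for Spry2. Over all 8 libraries Spry2 had a log2 difference of -0.60.

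Relatives of the other feedback genes had medians near 0. The 6 relatives of Zfp36 and Btg2 had a median log2 difference of -0.03, with 0 called by limma and 0 at an unadjusted p under 0.05. Zfp36l1, which encodes a further AU-rich RNA binding protein, averaged 1372 ± 173 normalized counts in Ndp KO and 1678 ± 203 in WT (SD, n = 4 each). Among 13 tested genes of cytokine signalling around Socs3, the median was -0.07, with 0 called by limma and 1, Socs7, at an unadjusted p under 0.05. Socs7 averaged 314 ± 51.7 normalized counts in Ndp KO and 511 ± 135 in WT (SD, n = 4 each). Il6st, the gene of the receptor subunit gp130 through which Socs3 is known to act, averaged 2259 ± 296 in Ndp KO and 1686 ± 796 in WT (SD, n = 4 each). Its log2 difference was 0.54 over all 8 libraries and -0.34 in the pair with the shared title date.

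Of 11 other Klf genes, limma called 0, and 1, Klf15, had an unadjusted p under 0.05. Klf15, a glucocorticoid-induced factor, lay in the opposite direction to Klf4 and Klf6, with 166, 159, 151 and 145 normalized counts in Ndp KO libraries 1 to 4, and 83.4, 103, 69.4 and 70.9 in WT libraries 1 to 4. Klf15 did not overlap between genotypes, and its log2 difference was 0.93 ± 0.28 (SE, limma, unadjusted p = 0.00709, adjusted p = 0.895).

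The 9 upstream genes of the SRF, TCF and ERK list had a median log2 difference of 0.10, with 0 called by limma and 0 at an unadjusted p under 0.05. Srf itself, the factor that binds CArG boxes, averaged 382 ± 54.8 normalized counts in Ndp KO and 496 ± 75.7 in WT (SD, n = 4 each). Among 19 other immediate early genes the median was 0.01, with 0 called by limma and 1, Ccn2, at an unadjusted p under 0.05. Ccn2, a matrix-associated target of YAP signalling, averaged 564 ± 283 normalized counts in Ndp KO and 892 ± 231 in WT (SD, n = 4 each). Its log2 difference was -0.76 over all 8 libraries and 0.14 in the pair with the shared title date. The 6 inducible heat shock genes had a median of 0.07, with 0 called by limma and 0 at an unadjusted p under 0.05. In the AP-1 and Nr4a list, 6 of 10 genes were lower at an unadjusted p under 0.05, against 2.47% of all genes, with 0 called by limma.

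Markers of other cell types also differed between libraries. The 12 macrophage markers summed to 3819 to 6137 normalized counts in Ndp KO libraries and 2098 to 5138 in WT libraries. A positive log2 difference was found for 11 of the 12, with 5 higher at an unadjusted p under 0.05 in limma, against 3.1% of all genes. Of the 10 supporting cell markers 7 had a negative log2 difference. At an unadjusted p under 0.05, 3 were lower in limma, against 2.47% of all genes. For 2 of the 10 every Ndp KO library lay below every WT library, against 1.58% of all genes. The summed level of the 10 was lowest in WT library 3, the lowest WT library for 4 of the 9 genes (Egr1, Ier2, Dusp1 and Zfp36). It was highest in WT library 4 (415149), the highest WT library for 0 of the 9. The largest part of this sum was Tectb (mean 196880), itself highest in WT library 4 and lowest in WT library 3. The sum therefore need not follow the other supporting cell markers. Pearson's r of the log2 summed level of supporting cell markers with the mean level of the 9 genes was 0.49. It was -0.72 for hair cell markers and -0.45 to 0.26 for the other lists, without a test. In such sums the most abundant markers weigh most, as Calb1 (mean 187687) among hair cell markers and C1qb (mean 2198) among macrophage markers. Each r therefore mainly describes those markers. The 10 mesenchyme markers summed to 22905 to 40062 normalized counts in Ndp KO libraries and 20139.6 to 26790.5 in WT libraries. Of these 10 markers, 8 had a positive log2 difference, with 3 higher at an unadjusted p under 0.05 in limma, against 3.1% of all genes. limma called 0 of them, and DESeq2 called Coch (adjusted p = 0.00864), a fibrocyte gene named after its values were seen. Schwann cell markers, 6 in number, summed to 5163 to 14400 in Ndp KO libraries and 5617 to 11358 in WT libraries, and 6 neuron markers to 21846 to 27409 in Ndp KO libraries and 20374 to 26322 in WT libraries. The 7 endothelial markers in the table summed to 3032 to 4445 in Ndp KO libraries and 2639 to 4329.7 in WT libraries, nearly all of it Egfl7 (mean 3316), and 4 red blood cell markers to 1.96 to 66.8 in Ndp KO libraries and 2.33 to 84.0 in WT libraries. No marker of these lists found in the table was at 0 in all libraries. The part of these cells in the levels of the 9 genes was not tested.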

How the data were processed

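RNA of 8 libraries was measured. RNA was isolated with an RNeasy Plus Micro column, amplified by SMART-Seq v4 and made into libraries with Nextera XT, per the labels' protocols. The build mm10 and the tools DESeq2 1.26.0, Salmon 0.14.2 and bcl2fastq 2.20 are listed in the submitters' processing notes, and their roles are not given in the sources used here.

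The authors deposited 1 table of 25343 genes with normalized gene counts, here treated as a signal, which the values show to be counts divided by 1 factor per library. The deposited table also gives log2 fold changes and p-values of the authors' own comparison, per the file headers, with 265 genes lacking a p-value. Whole reads were recovered from 100% of 202744 values within 1e-06 of a whole number. What Salmon was used for is unknown, so these numbers may be counted reads or rounded estimates. The word reads covers both. Libraries held 35077950 to 48329827 reads, and 3 reads were worth 2.34 to 3.49 normalized counts. That floor covers counting error only, since PCR copies were not marked by molecular identifiers. Every pair of libraries of a genotype differed by more than counting noise (mean chi-square per gene at least 32.4), so none was treated as a repeat deposit of another. This does not show that the samples are independent.

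Log2(normalized count + 1) was fitted with limma 3.58.1 (R 4.3.3), with an intensity trend, for the 18203 genes with at least 10 normalized counts in at least 4 libraries. Tests were two-sided with Benjamini-Hochberg adjustment over all 18203 and a threshold of 0.05. On this scale the change of low genes is understated. SDs are of normalized counts and SEs of the log2 difference. edgeR 4.0.16 and DESeq2 1.42.0 ran on the recovered reads, alongside other pseudocounts, minimums, scalings and left-out libraries. The fits were tried on simulated data. Coordinates are those of the deposited table, and exon lengths come from GENCODE (GRCm38), limited for Dusp1 to the deposited coordinates.

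Genes named are the 9, Ndp, up to 4 genes of each related list with the smallest limma p, up to 3 of each marker list with the highest mean, the 8 genes most like the mean level of the 9 and the 3 most like Egr1. Gm44710 and the genes described only for a sample that stood apart were picked with their values in view. The 9 genes and all lists were chosen with earlier results of these data known.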

Additional observations from a re-analysis of the deposited data

Results flagged for a closer look

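In groups of 4 libraries, a library was singled out when its gap to the nearest other, as a share of the group's range, exceeded Dixon's critical value. Chance gives about 1 in 20 groups, and 10 of the 152 groups checked met it. None of the 9 early-response genes did.

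Among related genes, Dusp6 had 1832 normalized counts in Ndp KO library 4, against 1330.5 to 1395 in the other Ndp KO libraries. Klf11, a TGF-beta-inducible Klf gene, had 614 in Ndp KO library 1, against 278 to 309 in the other Ndp KO libraries. Egr3 had 226 normalized counts in WT library 4, against 111 to 122 in the other WT libraries, and Klf12 had 1098 there, against 1360.0 to 1393 in the others. Cish, a cytokine-induced inhibitor related to Socs3, had 231 in WT library 1, against 446 to 490 in the other WT libraries (489.6 at most). Dync1i1, a dynein intermediate chain gene, is in none of the related lists. It was picked for its likeness to the mean level of the 9 early-response genes, which was also lowest in Ndp KO library 3. Dync1i1 had 2271 in Ndp KO library 3, against 3467 to 3546 in the other Ndp KO libraries.

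Among markers of other cells, Csf1r, a macrophage receptor gene, had 820.5 normalized counts in Ndp KO library 4, against 230 to 248 in the other Ndp KO libraries (229.5 at least). Csf1r also had 323 in WT library 1, against 112 to 138 in the other WT libraries. Lyz2, a lysozyme gene of myeloid cells, had 1061 in WT library 1, against 4.68 to 121 in the other WT libraries. Nefl, a neurofilament gene, had 18617 in Ndp KO library 2, against 14077 to 14784 in the other Ndp KO libraries.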

How the results depend on the processing

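limma called 0 of the 9 genes under every alternative run, as did edgeR and DESeq2, and the lowest adjusted p of any of the 9 over these was 0.479. Over all genes limma called 1. The count was 0 with a pseudocount of 0.1, with a minimum of 100 normalized counts, with edgeR and without both libraries of the shared title date, 16 with DESeq2, 3 with limma without the trend and 0 to 2 with each library left out in turn. Of the related genes, the count called was 1 with DESeq2 and 0 otherwise. The median log2 difference of the 9 was -0.79 in the shared-date pair alone, where Zfp36 had -0.88, Socs3 -0.96 and Klf6 -0.26. Socs3 reversed to 0.29 without both of those libraries, and ranged from -0.17 to 0.15 with each library left out in turn. Of the pairs of genes, 1 passed after centring within genotype, by p-values that are only approximate. The count was 0 without 2 libraries, where too few libraries were left for any pair to pass on its own. The other log2 differences kept their direction. Ier3 had no value at the minimum of 100. The cause of these changes was not tested. No scaling moved the median of all genes by over 0.1 on the log2 scale. No paired analysis was possible because the replicate numbers were given in accession order and mark no shared animals, and only 1 title date occurs in both genotypes. The lowest value of any of the 9 genes was 46.5 normalized counts, where 3 reads were worth 2.34 to 3.49.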

Other observations

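Some immediate early and cytokine genes had higher averages in Ndp KO libraries, opposite to Egr1 and Dusp1, and none was called by limma. Mcl1, an anti-apoptotic gene of the Bcl2 family, averaged 3991 ± 660 normalized counts in Ndp KO and 3129 ± 1066 in WT (SD, n = 4 each; limma adjusted p = 0.922). Tnfaip3, a feedback inhibitor of NF-kappa-B signalling, averaged 538 ± 50.4 normalized counts in Ndp KO and 408 ± 103 in WT (SD, n = 4 each; limma adjusted p = 0.911). The genotypes overlapped for Mcl1 and for Tnfaip3. In the pair with the shared title date the difference was -0.44 for Mcl1, against 0.40 over all 8 libraries, and 0.74 for Tnfaip3. Dnajb1, a co-chaperone gene induced by heat shock, ran opposite to the mean level of the 9 genes over the 8 libraries (Pearson's r = -0.93, a description picked after the values were seen). Dnajb1 had 3438, 3534, 3886 and 3415 normalized counts in Ndp KO libraries 1 to 4, and 3473, 2878, 3547 and 3409 in WT libraries 1 to 4. Its highest value was in Ndp KO library 3 and its lowest in WT library 2, the libraries with the lowest and the highest mean level of the 9 genes.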
